A study of Homo sapiens with 10 samples.

Results

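A set of genes known from the luminal cells of the prostate were followed in DU145 cells with lowered SOX4. They are the 4 STEAP genes (STEAP1, STEAP2, STEAP3 and STEAP4) together with ACPP, SLC45A3, NDRG1, CAMKK2, FKBP5 and ABCC4. Each was taken by its symbol from a deposited table of 13527 features, and all 10 had a row. The 10 were selected on their shSOX4 to shCon difference in counts, read in the same 6 libraries, so every shSOX4 to shCon value of theirs below is a description. No p-value is given for any of them, and "called" only says that the gene passed the threshold of a fit across all features.

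The cells are DU145, a human line long kept in culture from a prostate carcinoma that had spread to the brain. The tested libraries carry a short hairpin RNA against SOX4 (genotype SOX4 knockdown, shSOX4 1, 2 and 3) and their controls a hairpin of scrambled sequence (genotype Scramble, shCon 1, 2 and 3). Both groups were grown in DMEM with fetal bovine serum and antibiotics, with no treatment. The labels do not say whether each group is a pool or a clone, how many hairpins were used, or whether the 3 libraries of a group were separate cultures, so the spread between them may be technical. Total counts were 31189910 to 34784541 in shSOX4 and 36360205 to 43361609 in shCon libraries. SOX4 itself averaged 5.67 ± 0.992 CPM (read counts scaled to library size, with TMM factors) in shSOX4 and 10.5 ± 2.26 CPM in shCon (SD, n = 3 each). On the second principal component shSOX4 1 and shCon 3 stood apart from the other 4 libraries, and results that change without them are given both ways.

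STEAP proteins are named for the six-transmembrane epithelial antigen of the prostate. They are membrane reductases that pass electrons from NADPH to ferric iron and cupric copper, the step before either metal can cross a membrane. STEAP1 lacks the NADPH-binding domain of the other members and is known as a surface antigen of prostate tumours. The remaining genes are known in prostate cells chiefly as genes that respond to androgen, a hormone whose signalling DU145 is known for largely lacking.

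Of the 10 genes, 2 were called higher and 4 lower in shSOX4 at an adjusted p under 0.05 in edgeR's quasi-likelihood test with Benjamini-Hochberg adjustment. Over all 13527 features 17% were called higher, 15.8% lower and 32.8% in either direction. STEAP4 and ACPP, prostatic acid phosphatase, were the genes called higher, each by more than 3 on the log2 scale. STEAP3, SLC45A3, NDRG1 and CAMKK2 were called lower, by 0.72 to 1.03. The values of all shSOX4 libraries lay beyond those of all shCon libraries for 7 of the 10, above for 2 and below for 5, against 47% of all features (23.1% above and 23.9% below). STEAP1, FKBP5 and ABCC4 overlapped between the groups.

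**Figure D1:**
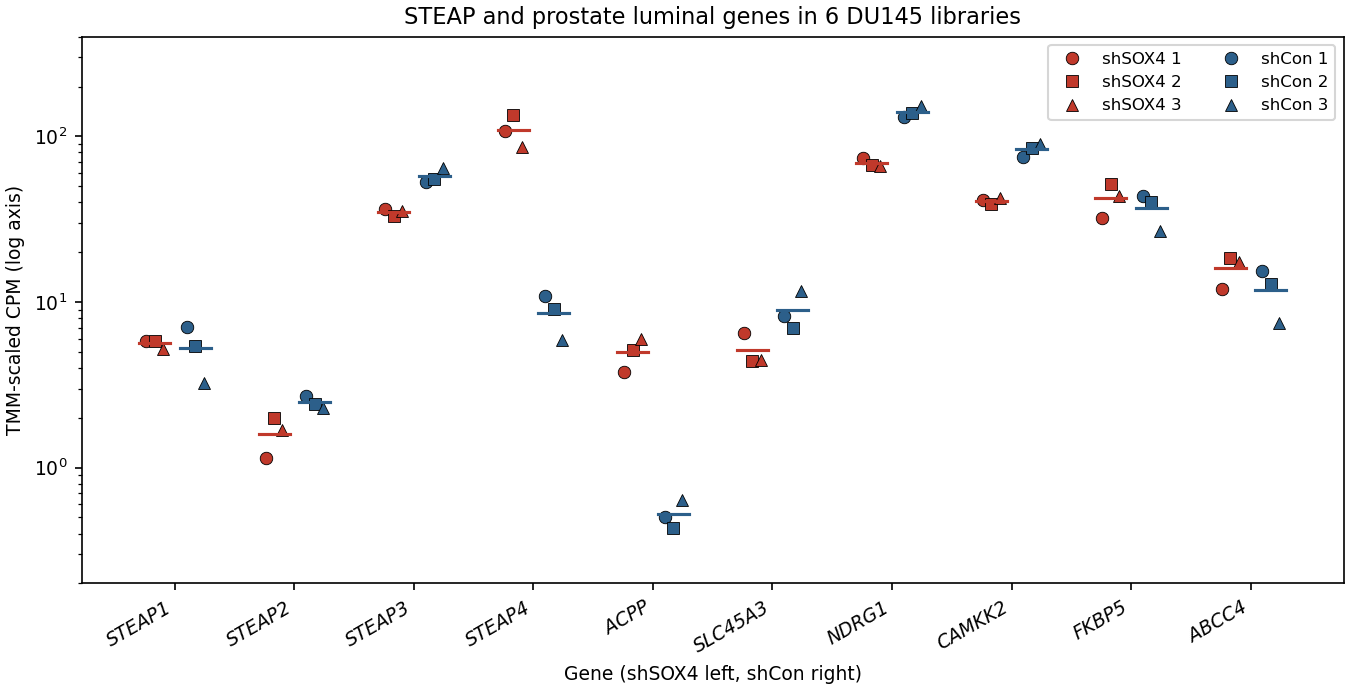
Level of each of the 10 genes in every library, as TMM-scaled CPM on a log axis, with shSOX4 (red) left of shCon (blue); points are libraries and lines are group means. STEAP4 and ACPP stand far apart between the groups, while the points of STEAP1, FKBP5 and ABCC4 intermingle.

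The starts of the genes were read from RefSeq's promoter windows on GRCh38.p14, each with 250 bases before the annotated start and 50 after. Windows were found for 9 of the 10 genes, all but NDRG1. Those of the genes called higher are shown with a pair of those called lower, to set genes of both directions side by side. Capitals mark every GC box, GGGCGG on either strand.
STEAP4: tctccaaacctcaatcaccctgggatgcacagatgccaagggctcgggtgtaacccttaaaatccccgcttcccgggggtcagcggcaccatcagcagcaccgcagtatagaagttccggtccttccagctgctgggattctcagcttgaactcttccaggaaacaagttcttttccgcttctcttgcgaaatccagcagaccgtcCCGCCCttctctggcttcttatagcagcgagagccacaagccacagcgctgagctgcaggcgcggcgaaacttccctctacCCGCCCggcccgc
ACPP: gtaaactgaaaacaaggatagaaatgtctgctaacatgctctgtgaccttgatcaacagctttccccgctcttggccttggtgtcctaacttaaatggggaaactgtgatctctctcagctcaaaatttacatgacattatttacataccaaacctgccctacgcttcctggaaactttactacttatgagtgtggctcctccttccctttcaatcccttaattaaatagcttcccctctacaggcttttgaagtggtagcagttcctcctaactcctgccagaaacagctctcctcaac
STEAP3: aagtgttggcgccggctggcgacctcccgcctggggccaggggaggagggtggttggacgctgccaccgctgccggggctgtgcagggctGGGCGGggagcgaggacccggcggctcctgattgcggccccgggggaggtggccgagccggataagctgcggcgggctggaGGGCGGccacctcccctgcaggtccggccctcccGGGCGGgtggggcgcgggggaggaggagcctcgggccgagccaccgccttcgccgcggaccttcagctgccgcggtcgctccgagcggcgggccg
CAMKK2: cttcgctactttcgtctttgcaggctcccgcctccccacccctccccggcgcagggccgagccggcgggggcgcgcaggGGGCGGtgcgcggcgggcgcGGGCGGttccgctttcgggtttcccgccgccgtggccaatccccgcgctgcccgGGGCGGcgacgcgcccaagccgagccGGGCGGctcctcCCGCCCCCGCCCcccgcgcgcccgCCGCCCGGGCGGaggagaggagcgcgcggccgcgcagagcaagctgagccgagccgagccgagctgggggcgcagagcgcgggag
These lie at chr7:88306845-88307144 on the minus strand (STEAP4), chr3:132317157-132317456 on the plus strand (ACPP, named ACP3 in RefSeq), chr2:119223584-119223883 on the plus strand (STEAP3) and chr12:121296660-121296959 on the minus strand (CAMKK2). The ACPP window holds 2 CpG dinucleotides and no GC box, with a GC content of 43.7%. The STEAP4 window holds 18 CpG and 2 GC boxes (58.7% GC), the STEAP3 window 36 CpG and 3 GC boxes (78.7% GC), and the CAMKK2 window 52 CpG and 8 GC boxes (81.3% GC). Over all 35116 windows the median was 14 CpG and 58.7% GC, 18.2% of windows held 2 CpG or fewer, and 45% held a GC box. The ACPP window is thus CpG-poor, 44.5% of windows hold at least the 18 CpG of STEAP4, and the STEAP3 and CAMKK2 windows lie well above the median. SLC45A3, also called lower but not shown, has 26 CpG, 69% GC and 2 GC boxes, the same number of GC boxes as STEAP4. Windows of genes that were not called can be as rich: ABCC4 has 47 CpG and 79.7% GC, and STEAP1 has 27 CpG and 66.7% GC. A SOX motif, AACAAAG on either strand, was in none of the 4 windows shown, and it is in 5.2% of all windows. Nor was a half-site of steroid hormone receptors, AGAACA on either strand, which is in 14.8% of all windows. Among the windows of the other members, 1 of the 2 windows of STEAP2 held the SOX motif and 1 of the 2 windows of FKBP5 held the half-site. Those letters were searched in these stretches alone.

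STEAP4 held the largest difference of the 10. It had 107.8, 135.6 and 86.89 CPM in shSOX4 1, 2 and 3, against 10.95, 9.083 and 5.889 CPM in shCon 1, 2 and 3. Every shSOX4 library was thus far above every shCon library, and within each group the highest was less than 2 times the lowest. STEAP4, which reduces iron and copper and in mouse fat tissue is induced by inflammatory signals, averaged 110 ± 24.4 CPM in shSOX4 and 8.64 ± 2.56 CPM in shCon (SD, n = 3 each), a 12.7-fold difference of the means. Its log2 fold change was 3.67 (SE 0.254, 95% interval 3.13 to 4.21). The authors' deposited table gives 3.45 for STEAP4 on that scale. Of all features, 1.2% were called higher with a log2 fold change of at least 3, and STEAP4 and ACPP were both among them. Both were selected on this difference in these libraries, so their place there is a description. ACPP also has a row only through its shSOX4 level.

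STEAP3 went the other way. This family member reduces iron in endosomes during uptake of transferrin, as known best from red cell precursors of mice. It had 36.26, 32.96 and 35.39 CPM in shSOX4 libraries and 53.21, 55.19 and 64.22 CPM in shCon libraries. The shSOX4 values were close together and all lay below the shCon values, with 60.6% of the control mean left. The log2 fold change of STEAP3 was -0.72 (SE 0.171, 95% interval -1.09 to -0.36), and it ranged from -0.78 to -0.63 when 1 library was left out.

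STEAP1 and STEAP2, the remaining family members, were not called. STEAP1 had 5.779, 5.85 and 5.239 CPM in shSOX4 libraries, against 7.097, 5.401 and 3.236 CPM in shCon libraries. The shSOX4 values of STEAP1 fell inside the wider range of shCon, and its log2 fold change of 0.10 (SE 0.279) had an interval of -0.50 to 0.69. Without shCon 3, the lowest library, the value was -0.15. STEAP1B, a close copy of STEAP1 whose reads may be divided with it, had -0.18 (SE 0.334). RefSeq also places an antisense RNA, STEAP2-AS1, across STEAP1, and no source used here says whether counting used strand.

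STEAP2, a metalloreductase first described in prostate cancer, was scarce. It had 1.144, 1.981 and 1.697 CPM in shSOX4 libraries, from 39, 64 and 57 counts, and 2.716, 2.418 and 2.303 CPM in shCon libraries, from 124, 90 and 79 counts. All shSOX4 values lay below all shCon values, yet the log2 fold change of -0.63 (SE 0.325, 95% interval -1.32 to 0.07) was not called. On the authors' FPKM scale (fragments scaled to transcript length and library size) the groups of STEAP2 overlapped, with 0.1463, 0.3202 and 0.3616 FPKM in shSOX4, against 0.373, 0.3283 and 0.3004 FPKM in shCon. Counts divided by FPKM and by the library total give the transcript length that the FPKM implies. For STEAP2 it was 7.67, 6.41 and 4.63 kb in shSOX4 1, 2 and 3, and 7.67, 7.54 and 7.11 kb in shCon 1, 2 and 3. For STEAP1 it stayed at 1.39 to 1.42 kb in shSOX4 and 1.41 to 1.43 kb in shCon, so the implied length moved between libraries for STEAP2 and hardly for STEAP1. For STEAP3 it was 3.03, 3.84 and 4.07 kb in shSOX4 1, 2 and 3, and 3.17, 3.43 and 3.82 kb in shCon 1, 2 and 3. For STEAP4 it was 8.52, 8.43 and 7.68 kb in shSOX4 1, 2 and 3, and 9.12, 9.06 and 7.74 kb in shCon 1, 2 and 3.

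Compared per length, as FPKM, the make-up of the STEAP family differed between the groups. STEAP4 gave 43.7, 55.1 and 47% of the summed FPKM of the 4 genes in shSOX4 1, 2 and 3, against 5.15, 4.72 and 3.77% in shCon 1, 2 and 3. STEAP3 gave 35.6 ± 5.98% in shSOX4 and 77 ± 5.73% in shCon (SD, n = 3 each). The sum was 28.4, 30.2 and 23.8 FPKM in shSOX4 libraries, and 24.6, 21.8 and 18.7 FPKM in shCon libraries, so the sums overlapped while the shares of STEAP4 and STEAP3 did not. Without STEAP4 the other family members summed to 14 ± 1.73 FPKM in shSOX4 and 20.7 ± 2.65 FPKM in shCon. STEAP3 was the leading STEAP transcript in every shCon library and STEAP4 in every shSOX4 library. As shares of 1 sum these values move against each other, and they follow from the differences of STEAP4 and STEAP3 already given. Being FPKM, they also carry the moves of the implied lengths of STEAP3 and STEAP4 between libraries.

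**Figure D2:**
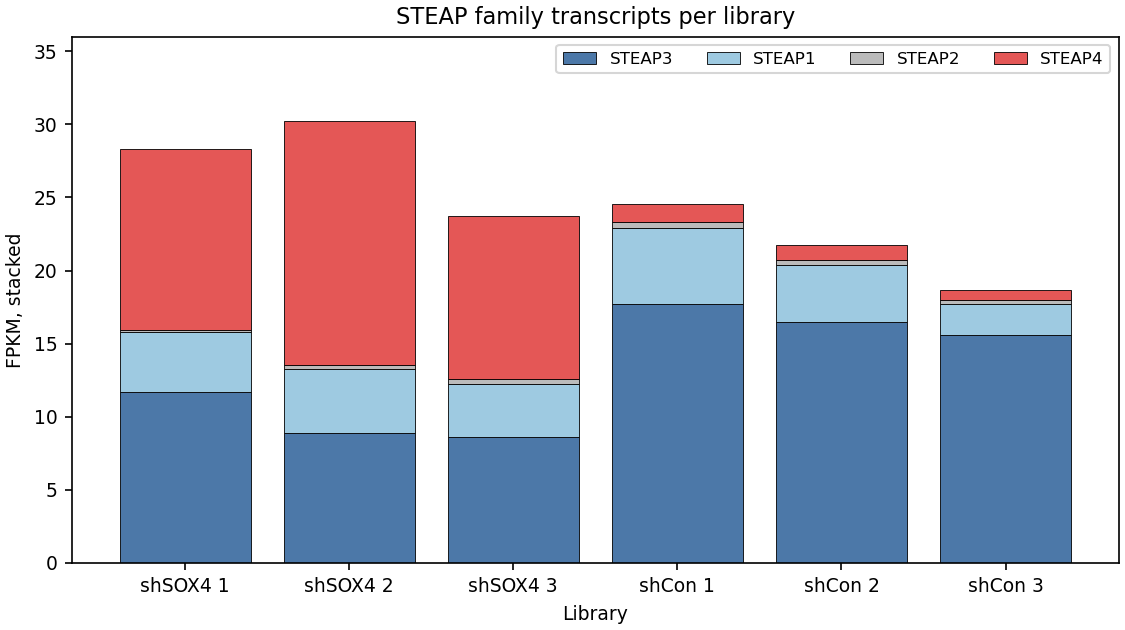
FPKM of the 4 STEAP genes stacked per library, the 3 shSOX4 libraries left of the 3 shCon libraries. STEAP4 (red) makes up 43.7 to 55.1% of the bar in shSOX4 and 3.77 to 5.15% in shCon, under totals that overlap between the groups.

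Genes that handle iron and copper beside the STEAP reductases were listed from textbook knowledge. Of 34 with a row, 8 rose and 7 fell in shSOX4, with a median log2 fold change of 0.03 against -0.01 over all features. Over all features 17% were called higher and 15.8% lower, and every list count is to be read against those shares. TFRC, the transferrin receptor that brings iron into the cell, averaged 163 ± 42.3 CPM in shSOX4 and 55.9 ± 11.9 CPM in shCon (SD, n = 3 each), a log2 rise of 1.55 (adjusted p = 0.00015, edgeR). IREB2, iron regulatory protein 2, which binds transferrin receptor and ferritin messages, rose by 1.14 (adjusted p = 0.00158, edgeR). On the copper side, the efflux ATPase gene ATP7A rose by 1.82 (adjusted p = 0.00208, edgeR) and COX17, the copper chaperone of cytochrome oxidase, by 0.93 (adjusted p = 0.00148, edgeR). ATP7A had under 1 CPM in shCon 1, so its row depends on its shSOX4 levels. Those that fell included FTL, the light chain of the iron store ferritin (-0.66), and LCN2, which binds iron-carrying siderophores (-1.45). The counts depended on single libraries: 5 rose without shSOX4 2 or shSOX4 3, and 1 fell without shSOX4 2, 4 without shSOX4 3 and 3 without shCon 1 or shCon 2. Without both shSOX4 1 and shCon 3, 10 rose and 9 fell.

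ACPP, the secreted acid phosphatase long used as a serum marker of prostate cancer, was close to silent in control cells. It had 129, 166 and 202 counts in shSOX4 1, 2 and 3 (3.784, 5.138 and 6.013 CPM), and 23, 16 and 22 counts in shCon 1, 2 and 3 (0.5038, 0.4299 and 0.6413 CPM). No library of one group came near the other, and the means stood 9.48-fold apart. The log2 fold change of ACPP was 3.24 (SE 0.34, 95% interval 2.51 to 3.97), against 2.83 in the authors' deposited table. Every feature in that table has at least 1 CPM in 3 or more libraries, so ACPP has a row only through its shSOX4 level and could not have been seen lower. With limma on log2(FPKM + 1), a scale that compresses low values, its difference was 1.32.

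SLC45A3, or prostein, a transporter-like membrane protein largely restricted to the prostate, was lower. It had 6.512, 4.426 and 4.465 CPM in shSOX4 libraries, against 8.214, 7.013 and 11.72 CPM in shCon libraries. The groups did not overlap, but shSOX4 1 at 6.512 CPM was close to shCon 2 at 7.013 CPM. Its log2 fold change was -0.81 (SE 0.258, 95% interval -1.36 to -0.25). SLC45A3 was no longer called without shCon 3 (-0.57), shSOX4 2 (-0.71) or shSOX4 3 (-0.70), and it was still called without shCon 3 and shSOX4 1 together (-0.77).

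**Figure D3:**
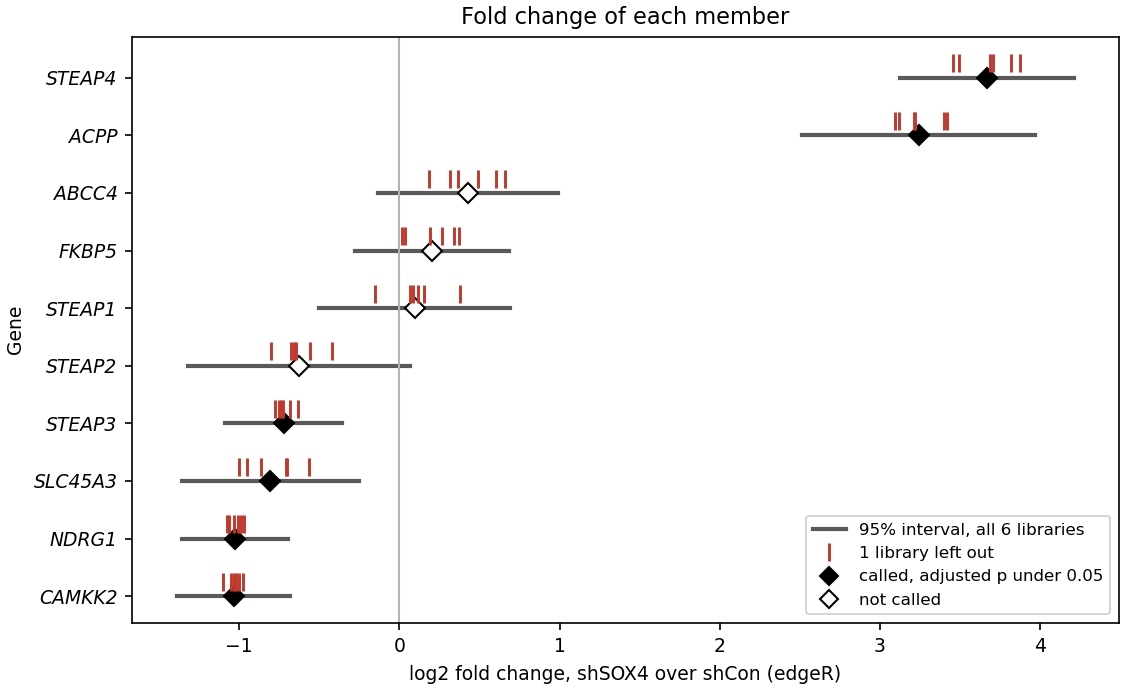
Log2 fold change of each gene, shSOX4 over shCon, from edgeR (diamonds; filled where called) with its 95% interval (grey line) and the values when 1 library was left out (red ticks). STEAP4 (3.67) and ACPP (3.24) lie apart from the other 8 genes, which range from -1.03 to 0.43; the ticks of STEAP1 fall on both sides of 0.

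Other luminal identity genes moved in both directions. Of 16 with a row, 5 rose and 3 fell, with a median log2 fold change of -0.22. HOXB13, a homeobox gene of prostate epithelium, rose by 2.71 (adjusted p = 0.000178, edgeR) to 2.34 CPM in shSOX4, against 0.36 CPM in shCon. Like ACPP, HOXB13 has a row only through shSOX4. The luminal keratin gene KRT8 was abundant and averaged 4603 ± 209 CPM in shSOX4 and 1828 ± 396 CPM in shCon (SD, n = 3 each), with a log2 difference of 1.33 and an adjusted p = 3.98e-05 in edgeR. Those that fell included EPCAM, an epithelial adhesion molecule (-0.83), and CD24, a surface glycoprotein (-0.65). KLK2, KLK3, TMPRSS2, MSMB and FOLH1, which define secretory luminal cells, were among 12 listed genes without a row and were not analysed here. Without shSOX4 1 and shCon 3, 5 rose and 5 fell. On the FPKM scales, where low genes such as HOXB13 were not tested, 3 rose.

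Of 54 androgen response genes with a row, 17 rose and 6 fell, with a median log2 fold change of 0.13. The shares over all features were 17% higher and 15.8% lower. UAP1, which makes UDP-N-acetylglucosamine, averaged 162 ± 9.22 CPM in shSOX4 and 80.5 ± 15.6 CPM in shCon (SD, n = 3 each), with a log2 difference of 1.01 and an adjusted p = 0.000821 in edgeR. SLC38A2, an amino acid transporter, rose by 0.89 (adjusted p = 0.00245, edgeR). LIFR, the receptor for leukemia inhibitory factor, rose by 1.49 (adjusted p = 0.000409, edgeR), but by limma on log2(FPKM + 1) its value was 0.25 and was not called. PMEPA1, a feedback inhibitor of TGF-beta signalling, had -0.37 and was not called. The number that rose was 11 without shSOX4 2, 10 without shSOX4 3 and 10 on the log2(FPKM + 0.1) scale. Without both shSOX4 1 and shCon 3 it was 19. The number that fell was 2 without shSOX4 2 and 3 without shSOX4 3 or shCon 2, and 10 without both shSOX4 1 and shCon 3.

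NDRG1, a cytoplasmic protein induced by androgen and by low oxygen and described as a suppressor of metastasis, was the most abundant of the 10 genes per length in both groups. It had 73.69, 67.19 and 66.5 CPM in shSOX4 libraries, against 131.2, 139.4 and 151.7 CPM in shCon libraries. The libraries of each group were close together and the groups stood well apart, with 49.1% of the control mean left. Its log2 fold change was -1.03 (SE 0.156, 95% interval -1.36 to -0.69), and it ranged from -1.07 to -0.97 when 1 library was left out. NDRG4, a relative, fell by 1.28 (adjusted p = 0.00201, edgeR), while NDRG2 (-0.30) and NDRG3 (-0.26) were not called.

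Hypoxia response genes were listed beside NDRG1. Of 35 with a row, 9 rose and 7 fell, with a median of -0.02. TMEM45A, a membrane protein induced by low oxygen, averaged 26.1 ± 1.11 CPM in shSOX4 and 5.19 ± 0.677 CPM in shCon (SD, n = 3 each), with a log2 difference of 2.33 and an adjusted p = 1.53e-06 in edgeR. The glucose transporter gene SLC2A3 rose by 2.94 (adjusted p = 1.94e-06, edgeR) and ADM, the vasodilator adrenomedullin, by 1.77 (adjusted p = 0.000101, edgeR). VEGFA, the angiogenic factor, fell by 1.01 (adjusted p = 0.000313, edgeR), the direction of NDRG1, so the named genes of the list moved both ways. HIF1A, the oxygen-regulated subunit of the factor, had 0.26 and was not called. The number that fell was 2 without shSOX4 2, 3 without shSOX4 3 and 4 without shCon 2 or on the log2(FPKM + 0.1) scale. When 1 library was left out 6 to 9 rose, and 10 rose without both shSOX4 1 and shCon 3.

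CAMKK2, a calcium- and calmodulin-dependent kinase that activates AMPK and is known to be induced by androgen, had 41.42, 38.9 and 42.36 CPM in shSOX4 libraries. In shCon libraries it had 75.53, 85.4 and 90.43 CPM. Again the groups did not overlap and 48.8% of the control mean was left. The log2 fold change of CAMKK2 was -1.03 (SE 0.165, 95% interval -1.39 to -0.68). The related kinase gene CAMKK1 also fell, by 0.85. In the list of AMPK, the cellular energy sensor, with its activators and substrates, 3 of 24 genes rose and 5 fell, with a median of -0.08. PRKAA2, a catalytic subunit of AMPK, rose by 1.47 (adjusted p = 0.0016, edgeR). PPARGC1A, the mitochondrial coactivator PGC-1 alpha, rose by 3.86 (adjusted p = 0.00061, edgeR) on 166 counts in shSOX4 and 13 counts in shCon, so that it too has a row only through shSOX4. STK11, the other AMPK kinase LKB1, fell by 0.67, as did MFF, a mitochondrial fission factor (-0.70; adjusted p = 0.00555, edgeR). TBC1D1, a regulator of glucose transporter traffic, had a log2 fold change of -0.69 (adjusted p = 0.0157, edgeR), which was no longer called without shCon 1 (-0.55; adjusted p = 0.0708, edgeR) or on the log2(FPKM + 0.1) scale by limma (-0.53). On the FPKM scales, where low genes such as PPARGC1A and PRKAA2 were not tested, none of the list rose. Without both shSOX4 1 and shCon 3 there were 5 that rose, and 2 to 6 fell when 1 library was left out (2 without shSOX4 2, and 3 without shSOX4 3, shCon 1 or shCon 3).

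FKBP5, or FKBP51, a co-chaperone of HSP90 that steroid receptors induce strongly, did not separate the groups. It had 32.3, 51.97 and 43.55 CPM in shSOX4 libraries, against 43.85, 40.39 and 26.79 CPM in shCon libraries. Each group spanned a wider range than the distance between the means, 42.6 ± 9.87 CPM in shSOX4 and 37 ± 9.02 CPM in shCon (SD, n = 3 each). The log2 fold change of FKBP5 was 0.20 (SE 0.225, 95% interval -0.28 to 0.68). ABCC4, the efflux pump MRP4, which exports cyclic nucleotides and is abundant in prostate epithelium, had 12.06, 18.38 and 17.56 CPM in shSOX4 libraries and 15.33, 12.82 and 7.434 CPM in shCon libraries. These values overlapped too, and the log2 fold change of 0.43 (SE 0.262, 95% interval -0.13 to 0.99) was not called. The intervals of both genes still hold differences of up to 0.68 and 0.99 on the log2 scale.

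Of 24 glucocorticoid targets and partners of FKBP5 with a row, 3 rose and 9 fell, with a median of -0.14. The shares over all features were 17% higher and 15.8% lower. The glucocorticoid receptor gene NR3C1 rose by 0.80 and the kinase gene SGK1 by 1.02, while TSC22D3 (0.19) and PER1 (-0.23), both known targets of the receptor, were not called. HSP90AA1, the inducible HSP90, averaged 514 ± 61.9 CPM in shSOX4 and 253 ± 54 CPM in shCon (SD, n = 3 each), with a log2 difference of 1.02 and an adjusted p = 0.000896 in edgeR. CEBPD, a transcription factor of acute responses, fell by 1.64 (adjusted p = 0.000377, edgeR), NFKBIA, the inhibitor of NF-kB, by 1.00 (adjusted p = 0.000252, edgeR) and DDIT4, an inhibitor of mTORC1, by 0.98 (adjusted p = 0.00127, edgeR). The number that fell was 4 without shSOX4 2 and 5 without shSOX4 3, shCon 1 or shCon 2 or on the log2(FPKM + 0.1) scale, and 5 rose without both shSOX4 1 and shCon 3. Among 7 transporters related to ABCC4, ABCG2, a drug efflux pump, rose by 2.49 (adjusted p = 0.000538, edgeR), but it reaches the table's floor only with its shSOX4 levels, where it is high. ABCC3, an exporter of conjugated bile salts, fell by 0.73 (adjusted p = 0.00843, edgeR) and the related ABCC11 by 1.62 (adjusted p = 0.0108, edgeR), though ABCC11 was not called without shSOX4 2 (-1.32; adjusted p = 0.0598, edgeR). ABCC11 has a row only through shCon, where it is high, and the filter of the table thus bears on its direction. On the FPKM scales, where low genes such as ABCG2 and ABCC11 were not tested, none of the 7 rose and 1 fell.

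Paralogs of the 10 genes also divided, 5 up and 6 down of 23 with a row (median -0.26). Without shSOX4 2 there were 3 down, and without both shSOX4 1 and shCon 3 there were 7 up and 8 down. FKBP1B, a calcium channel partner, fell by 1.98 (adjusted p = 0.000229, edgeR), against rises of FKBP3 by 0.82 (adjusted p = 0.00248, edgeR) and FKBP10, a collagen-folding enzyme, by 0.90 (adjusted p = 0.00285, edgeR). The acid phosphatase genes ACP1 and ACP2 rose by 0.82 and 0.64, and ACP6 fell by 0.72. Over all 8 lists 48 of 207 genes rose and 43 fell, and the median was -0.02. Of all features 17% were called higher and 15.8% lower.

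**Figure D4:**
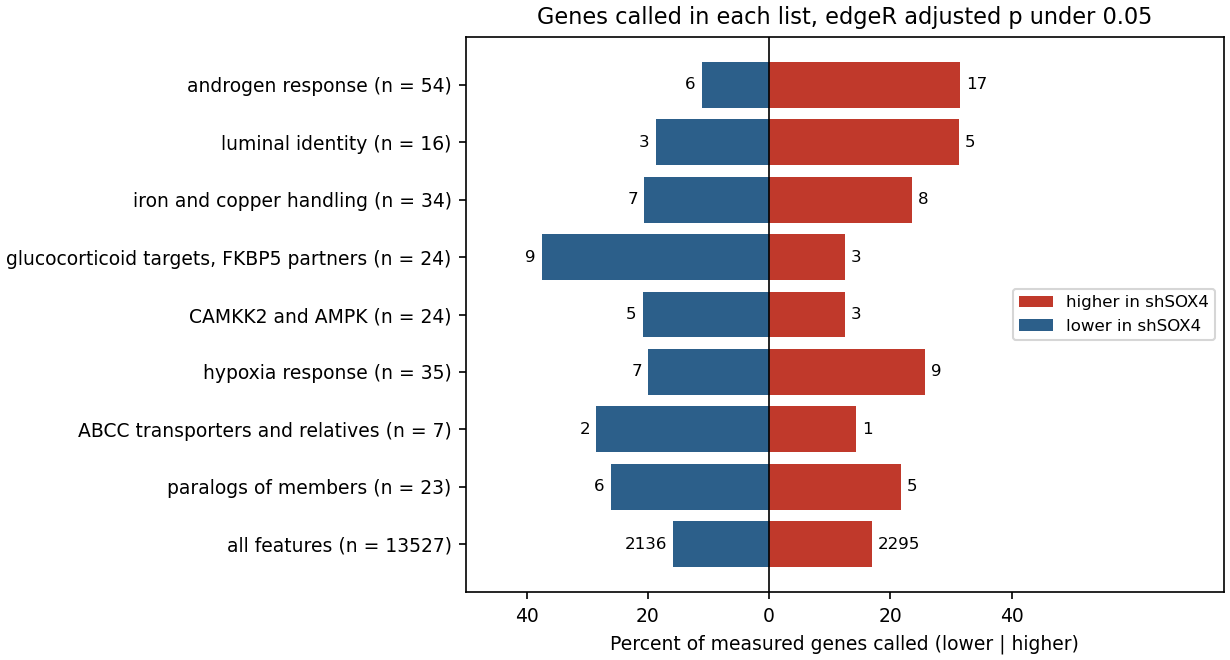
Percent of the measured genes of each list called higher (red, right of 0) or lower (blue, left of 0) in shSOX4, with the number of genes at the end of each bar and all 13527 features in the bottom row. The lists leave out the 10 genes themselves; androgen response genes have 17 called higher and 6 lower, and glucocorticoid genes 3 and 9.

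Per length, the order of the 10 genes changed chiefly through STEAP4. In shSOX4 the order of mean FPKM was NDRG1 (21.6), STEAP4 (13.4), FKBP5 (10.6), STEAP3 (9.73), CAMKK2 (8.54), STEAP1 (4.03), ABCC4 (2.66), ACPP (1.98), SLC45A3 (1.43) and STEAP2 (0.276). In shCon it was NDRG1 (43.7), CAMKK2 (18.1), STEAP3 (16.6), FKBP5 (9.20), STEAP1 (3.76), SLC45A3 (2.48), ABCC4 (2.09), STEAP4 (0.998), STEAP2 (0.334) and ACPP (0.181). Neighbours in the order whose libraries overlapped in shSOX4 were STEAP4 and FKBP5, FKBP5 and STEAP3, STEAP3 and CAMKK2, ABCC4 and ACPP, and ACPP and SLC45A3. In shCon they were STEAP1 and SLC45A3, and SLC45A3 and ABCC4. STEAP4 thus stood second in shSOX4 and eighth in shCon.

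Within the groups 6 of the 10 genes were lowest or highest in both libraries that stand apart. FKBP5, ABCC4 and STEAP2 were each lowest in shSOX4 1 and in shCon 3, and STEAP3, SLC45A3 and NDRG1 were each highest in both. These 3 and 3 of 10 compare with 29.9% of all features lowest in both and 28.8% highest in both, so such shifts are common. For ABCC4, shSOX4 1 was below the mean of shSOX4 2 and 3 by a log2 difference of -0.57, and shCon 3 below the mean of shCon 1 and 2 by -0.91. FKBP5 differed by -0.56 and -0.65. STEAP4 and STEAP1 did so in shCon 3 alone, at -0.75 and -0.92, with -0.01 and 0.06 in shSOX4 1. The part of these libraries in the group differences was measured by leaving both out. STEAP4 then had 3.47, ACPP 3.57, STEAP3 -0.66, SLC45A3 -0.77, NDRG1 -1.01 and CAMKK2 -0.98, all still called, and STEAP1 had -0.17, STEAP2 -0.48, FKBP5 0.18 and ABCC4 0.35, none of them called.

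**Figure D5:**
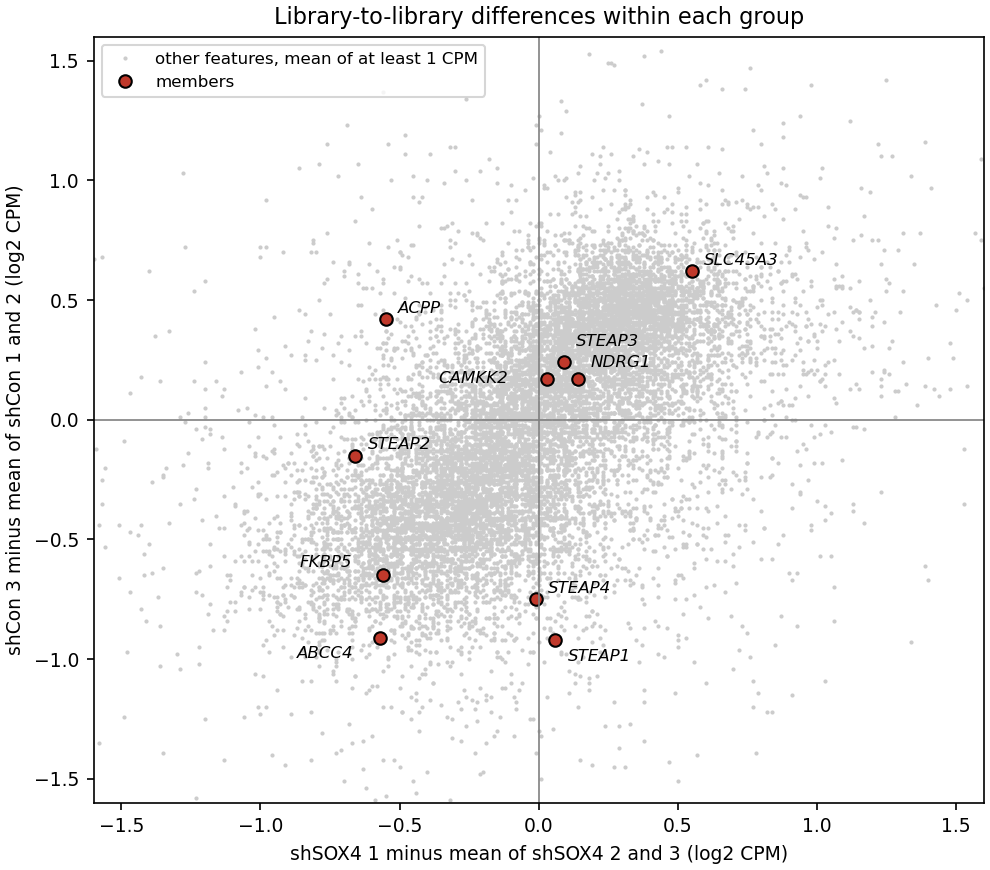
Log2 CPM of shSOX4 1 less the mean of the other shSOX4 libraries (x axis) against shCon 3 less the mean of the other shCon libraries (y axis), for the 10 genes (red) and other features with a mean of at least 1 CPM (grey; 160 of 13375 features beyond 1.6 on either axis are not drawn). ABCC4 and FKBP5 lie low on both axes, SLC45A3 lies high on both, and STEAP4 and STEAP1 are low on the y axis alone.

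Markers of other cell types were set beside these results. Of 13 fibroblast and stroma markers 5 had a row, and 4 of them rose. Their summed level was 190 to 259 CPM in shSOX4 libraries and 51.1 to 71.8 CPM in shCon libraries, most of it from FBLN1, an extracellular matrix protein (208 CPM in shSOX4 and 57.3 CPM in shCon on average). COL1A2, COL3A1, DCN and PDGFRA, which define fibroblasts, were among the 8 without a row. LUM, PDGFRB and, among endothelial markers, CDH5 reach the table's floor of 1 CPM in 3 libraries only with their shSOX4 levels, so they could hardly have been seen lower. Endothelial markers moved both ways: CDH5, the cadherin of endothelial junctions, averaged 5.88 CPM in shSOX4 and 0.722 CPM in shCon and was called higher (log2 3.01), EGFL7 averaged 64.1 CPM in shSOX4 and 109 CPM in shCon and was called lower (-0.77), and ESAM was not called (0.38). Their sum, carried by EGFL7, was 61.8 to 86.7 CPM in shSOX4 and 92.5 to 147 CPM in shCon over 3 genes of 8. PECAM1 and VWF had no row. Leukocyte markers summed to 46.3 to 56.5 CPM in shSOX4 and 97.4 to 117 CPM in shCon over 2 of 12, without a row for PTPRC. That sum was carried by CD68, which averaged 46.95 CPM in shSOX4 and 105.9 CPM in shCon and was called lower (-1.17). CD14 averaged 2.87 CPM in shSOX4 and 2.18 CPM in shCon and was not called (0.41). Basal prostate markers had 7 of 11 with a row, with KRT5, KRT14 and TP63 not analysed here. They summed to 474 to 541 CPM in shSOX4 and 300.3 to 415 CPM in shCon. The higher sum was carried by KRT17 (242 CPM in shSOX4 and 34.2 CPM in shCon on average). The median log2 fold change of the 7 was -0.45. The fibroblast sum is thus higher in the same libraries as STEAP4 and ACPP, and its part in their difference was not tested. In bulk RNA a change in the share of cells of a type and a change of RNA per cell cannot be told apart.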

How the data were processed

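RNA-seq was measured in 3 shSOX4 and 3 shCon libraries of DU145. The 4 ATAC-seq libraries of the series were not analysed here. The labels' protocols describe paired-end sequencing of poly-A RNA and 2 library kits, without saying which library used which.

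Per the file headers, each gene has a raw count in every library, and the deposited counts are whole numbers. FPKM, which the authors scaled by transcript length and depth, are deposited beside them, per the file headers. The same table holds the authors' adjusted p-value and their log2 fold change, per the file headers. Among tools and builds, the submitters' processing notes list hg19, HISAT2, STAR, Bowtie2, MACS2 2.1.1 and deepTools 2.07 with no roles. The program that counted reads, its strand setting and its annotation were not found in those notes, the labels or the headers. Column letters NC and SH were read as shCon and shSOX4. The ratio of count to FPKM, scaled by library total, stayed within 5% over the 6 libraries for 46.8% of features, so the FPKM are not plain counts per length. All 13527 features have at least 1 CPM in 3 or more libraries.

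Groups were compared with edgeR 4.0.16 in R 4.3.3 (TMM, filterByExpr, which removed 0 features, quasi-likelihood F test, two-sided, group as the only term), with Benjamini-Hochberg adjustment over all features and a threshold of 0.05. Intervals of 95% use the fit's error and degrees of freedom. Log2 CPM used a prior count of 2. DESeq2 1.42.0, limma 3.58.1, other scalings and filters, the replicate block, FPKM scales and leaving out libraries were alternatives. The scripts were tested on simulated data. The members and gene lists were chosen with earlier results of these data known. Named genes are every member and up to 4 called genes of each list, those with the smallest adjusted p; other genes of the lists are given without a p and were chosen after their values were seen. A few listed genes are left unnamed and not reported here, although the list counts include them. Listed genes were matched by identifier through current and older symbols. Promoter sequences are RefSeq's on GRCh38.p14, and no other coordinates are given.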

Additional observations from a re-analysis of the deposited data

How the results depend on the processing

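The members called higher (2) were STEAP4 and ACPP in every fit that was run, and those called lower numbered 4 in all but 3 of them. SLC45A3 dropped out without shSOX4 2, without shSOX4 3 or without shCon 3, which left 3, the lowest of the range of 3 to 4 when 1 library was left out. As the members were selected on these same libraries, keeping a call in these fits is a description and no separate support. STEAP1 changed sign without shCon 3 (-0.15) and without shCon 3 and shSOX4 1 together (-0.17), and it was called in no fit; the cause was not tested. When single libraries were left out STEAP1 ranged from -0.15 to 0.38. Over all recomputed values of members and named list genes, 8 lost their call (SLC45A3, LIFR, TBC1D1 and ABCC11), 2 changed sign and 614 kept both direction and call. The 614 include the fit without a filter, which equals the main fit because filterByExpr removed 0 features, so that fit tests nothing. The list genes called lower (43) numbered 16 to 45 when 1 library was left out, with 16 without shSOX4 2 and 27 without shSOX4 3 or shCon 2, and those called higher (48) numbered 34 to 50. All features called (4431) numbered 2509 (without shSOX4 2) to 4966 when 1 library was left out. Without both shSOX4 1 and shCon 3 they numbered 5532, with 58 list genes called higher and 54 lower. These 3 values lie above the ranges with 1 library left out. With limma on log2(FPKM + 0.1), where fewer features are tested, 2928 features were called. With the replicate block 2 members were called higher and 4 lower, 38 and 30 list genes, and 3374 features. Deviations from the group means of same-numbered libraries correlated at -0.29, 0.159 and -0.293 over 13527 features, and shSOX4 1 correlated best with shCon 3 (0.495). Deviations from a mean of 3 libraries constrain one another, so these values cannot decide whether the numbers pair the libraries. Depth limits STEAP2 and ACPP most, with at most 124 and 23 counts in any shCon library. STEAP2 was not tested on FPKM scales, since its mean was under 1 FPKM.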

Other observations

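STEAP1, STEAP2 and STEAP4 lie on chromosome 7, and the protein-coding genes around them were read beside STEAP4. In RefSeq's order on GRCh38.p14 STEAP4 is preceded by SLC25A40, DBF4, ADAM22 and SRI and followed by ZNF804B, TEX47, STEAP1, STEAP2, CFAP69, FAM237B, GTPBP10 and CLDN12. SRI, the calcium-binding protein sorcin next to STEAP4, averaged 98.4 ± 5.31 CPM in shSOX4 and 110 ± 9.77 CPM in shCon (SD, n = 3 each), which differ by -0.16 on the log2 scale (adjusted p = 0.454, edgeR). ADAM22 had -0.59 (adjusted p = 0.0794, edgeR), DBF4, the activator of a replication kinase, 0.49 (adjusted p = 0.106, edgeR) and SLC25A40 0.20 (adjusted p = 0.502, edgeR). On the far side GTPBP10 had 0.55 (adjusted p = 0.0596, edgeR) and CLDN12 -0.01 (adjusted p = 0.968, edgeR). None of the measured neighbours was called, and 4 of the 12 were not analysed here. These neighbours were chosen after the values of STEAP4 had been seen.

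The genes whose levels over the 6 libraries were most like each STEAP gene were sought among 9782 features with a mean of at least 5 CPM. Features that differ between shSOX4 and shCon in the same direction correlate over these libraries. The STEAP genes were selected on that difference, so the correlations are descriptions. For STEAP4 they were KYNU, an enzyme of tryptophan breakdown (Pearson r = 0.9993), and HEG1 (0.9984), and 515 features reached 0.95. For STEAP3 they were GNA12, a G protein subunit (0.9993), and ERP29, a protein of the endoplasmic reticulum (0.9973), with 583 features at 0.95 or more. STEAP1 had HSD17B11 (0.9951) and NFYB, a subunit of the factor NF-Y (0.9799), and only 8 features reached 0.95. STEAP2 had SMURF1, a ubiquitin ligase (0.9917), and SHISAL1 (0.9824), with 34.

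Among 4 neuroendocrine markers with a row of 15 listed, UCHL1, a neuronal ubiquitin hydrolase, was called lower, with 1104 CPM in shSOX4 and 1910 CPM in shCon. ENO2 (-0.38), DLL3 (-0.40) and PEG10 (0.57) were not called. Of the 7 basal markers, 2 were called higher, KRT17 (2.82) and DST (0.59), and 2 lower, KRT15 (-1.18) and ITGA6 (-1.08). Their median log2 fold change was -0.45. KRT17 averaged 242 CPM in shSOX4 and 34.2 CPM in shCon. None of the 7 liver or fat markers listed had a row.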
